A study of Mus musculus with 9 samples.

Results

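The StyI fragments that no library ever counted are described here: 439052 of the 2871947 StyI fragments of chromosomes 1 to 19, or 15.3%, had a count of 0 in each of the 9 libraries. The deposited map holds 3053721 fragments over 21 chromosomes, after the last interval of each chromosome, which has no closing StyI site, was left out. The members were chosen by their zeros, so every statement on where the zeros lie is a description and carries no test. The cells were E14Tg2a mouse embryonic stem cells of 129P2 background, an established male pluripotent line, grown with LIF. The HRS group (3 libraries) is the DNA recovered with the insoluble nuclear material after high-salt treatment, the Loop group (3 libraries) is the DNA of the other fraction of the same assay, and the input group (3 libraries, titled D0, D12 and D21) is genomic DNA that was not fractionated. The labels do not explain the D numbers. The labels do not state whether replicates are separate cultures, and any p-value here reflects the spread among these 9 libraries, which may be technical. DNA counts hold no marker that could check the cell type.

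In an HRS assay nuclei are stripped with high salt, the DNA loops are cut with a restriction enzyme, and what stays with the insoluble residue is separated from what is released. StyI cuts at CCWWGG, where W is A or T, so the genome falls into a fixed set of fragments. In the sequencing version each fragment is read through short tags at its cut ends. A fragment can therefore be seen only through the bases next to its StyI sites, and genes of recently duplicated families, which keep near-identical sequence there, carry near-identical tags.

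The tags themselves were read from RefSeq promoter windows (build GRCm38.p6, 250 bases before to 50 after a gene's start) that could be placed on the deposited mm9 StyI map. Each tag is given as 20 bases from the cut inward, with the StyI overhang and its closing bases in capitals. They are shown because they are what the assay reads, first for genes whose fragments were never counted and then for genes whose fragments were counted. For each never-counted example the tag found at the most sites was taken. Those examples are therefore shared tags by choice and do not show how common such tags are.
Zscan4b, Zscan4c, Zscan4d and Zscan4f (chromosome 7): CTTGGatctctgggcttaat
Vmn1r55, Vmn1r59, Vmn1r60 and Vmn1r61 (chromosome 7): CATGGaaatgttggctcttc
Serpina1b, Serpina1d and Serpina1e (chromosome 12): CTTGGctcccactgcttaaa
H3c8 and H3c10 (chromosome 13): CATGGctcgtactaagcaga
Gm16506, Gm7945 and other predicted genes (chromosome 14): CATGGaagttccaggtgaca
Nanog, one end (chromosome 6): CATGGacattgtaatgcaaa
Nanog, other end (chromosome 6): CATGGtggaccctgcaggtg
Klf4, one end (chromosome 4): CATGGcaacgcgcagtgggg
Klf4, other end (chromosome 4): CATGGtagctaaataaacaa

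The tag of the Zscan4 genes, which encode zinc finger proteins of the early embryo that a small share of mouse embryonic stem cells express, occurred at 4 sites, and all 4 lay on fragments with 0 counts. The tag of the 4 vomeronasal receptor genes also lay on never-counted fragments at 4 of 4 sites. The chromosome 14 tag occurred at 26 sites in the promoter windows, of which 22 were placed, all on never-counted fragments. The ends named for Nanog and for Klf4 are ends of different fragments, not the opposite ends of the same fragment. The Nanog tags, next to the start of a core pluripotency gene, occurred at 1 site each, on fragments with 148 and 261 counts over the 9 libraries. The Klf4 tags, likewise at 1 site each, lay on fragments with 611 and 191 counts.

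Longer stretches of the Zscan4 promoters show how alike such fragments are. The stretches below run from one StyI site to the next, with the sites in capitals, for Zscan4c (GRCm38.p6, chr7:11005512-11005740, plus strand) and Zscan4d (GRCm38.p6, chr7:11166164-11166392, minus strand).
Zscan4c: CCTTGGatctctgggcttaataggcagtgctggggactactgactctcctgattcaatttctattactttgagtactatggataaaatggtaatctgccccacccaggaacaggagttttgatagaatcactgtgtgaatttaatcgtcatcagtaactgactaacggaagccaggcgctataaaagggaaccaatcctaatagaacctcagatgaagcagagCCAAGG
Zscan4d: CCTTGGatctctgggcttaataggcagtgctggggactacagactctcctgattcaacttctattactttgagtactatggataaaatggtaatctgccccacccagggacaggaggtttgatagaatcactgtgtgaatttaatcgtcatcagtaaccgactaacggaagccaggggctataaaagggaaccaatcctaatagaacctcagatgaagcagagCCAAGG
These 2 stretches of 229 bases differed at 6 bases, an identity of 97.4%. Zscan4c and Zscan4f differed at 1 base, and Zscan4b and Zscan4f, the pair least alike, at 11. On the mm9 map each of the 4 genes had a fragment of 223 bp with 0 counts, the one of Zscan4c from 11590863 to 11591086, and the fragments on either side of it were at 0 as well. The alpha globin genes Hba-a1 and Hba-a2, the adult alpha globin pair, gave the same picture over a shorter stretch, identical in all 40 bases (GRCm38.p6, chr11:32283599-32283638 and chr11:32296416-32296455, plus strand).
Hba-a1 and Hba-a2: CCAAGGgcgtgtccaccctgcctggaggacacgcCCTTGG
The fragment of 34 bp between these sites and its direct neighbours were at 0 at both genes. Gapdh, which encodes a glycolytic enzyme, shows the other common kind of member, a fragment shorter than a tag (GRCm38.p6, chr6:125165946-125165965, minus strand).
Gapdh: CCTTGGtgcacactCCAAGG
The 14 bp fragment between these sites had 0 counts, while its neighbours had 253 and 451.

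Across all placed windows 21320 tags could be tied to a fragment. Of 20317 tags found at a single site of the promoter windows, 814 (4.01%) belonged to never-counted fragments. Tags found at 2 or more sites gave 642, so most tags of never-counted fragments were found at a single site of the windows. At 2 sites the share was 57.7% of 449 tags, at 3 or 4 sites 71.6% (146 tags), and at 5 or more sites 67.7% of 350. The median fragment behind a tag with a single site had 229 counts over the 9 libraries, whereas that behind a shared tag had 0. Tags shared only with sequence outside the promoter windows were not identified. How the submitters treated tags that match several places is not given in the sources used here, and its part in the zeros was not tested.

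The depth behind the zeros was large. The 9 libraries together held 501563032 counts, an average of 171 per autosomal fragment, and the median counted fragment held 157. Library totals ran from 39051867 counts in HRS replicate 3 to 62928375 counts in Loop replicate 2. A total of 0 allows a level of up to 3 counts, or 0.00598 CPM (counts scaled to a library size of 1e6) over all 9 libraries, and this limit covers counting error only. Fragments at 0 in a single library made up 18.0%, 17.8% and 22.7% of the autosomal map in the HRS replicates, 17.4%, 17.5% and 19.8% in the Loop replicates, and 18.1%, 18.0% and 17.9% in the D0, D12 and D21 inputs. HRS replicate 3, the library with the fewest counts, had the most zeros, and 67.3% of its zeros were shared by all 9 libraries, against 77.1% in Loop replicate 3 and 84.4% to 87.7% in the other 7.

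Each library in turn was also set against the 8 others, so that the zeros were defined without it. Of the fragments at 0 in the other 8, the ninth library counted 0.564%, 0.630% and 0.504% when it was HRS replicate 1, 2 or 3, 0.743%, 1.14% and 0.559% when it was Loop replicate 1, 2 or 3, and 0.484%, 0.723% and 1.27% when it was the D0, D12 or D21 input. The same libraries counted between 91.2% and 97.5% of all other fragments. The median count of a fragment seen by the ninth library alone was 1 in every case, and the highest was 175, in HRS replicate 3. In HRS, Loop and input libraries alike, no more than 1.27% of the zeros of the other 8 were lifted by the ninth.

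Just outside the rule lay 22124 fragments with 1 count in all, 8377 with 2 and 4778 with 3. Never-counted fragments touched another never-counted fragment in 75.2% of cases. Fragments with 1 count touched one in 45.3% of cases, those with 2 in 39.3%, those with 3 in 37.5% and those with over 10 in 12.9%. Fragments counted in all 9 libraries made up 73.8% of the map, and between 0.432% and 5.72% had a count in each number of libraries from 1 to 8, so most fragments were seen either always or never.

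The never-counted fragments were shorter than the counted ones. Their quartiles were 110, 265 and 921 bp, against 239, 578 and 1187 bp for counted fragments. In length they summed to 288.7 Mb, 11.95% of the autosomal map, or 11.5% when the 5 members longer than 500 kb are left out of map and members. The submitters' protocol cuts the ends to tags of about 18 to 20 nucleotides, and at that length the map changed most steeply. Fragments of 6 to 20 bp were never counted in 73.3% of cases (43715 of 59668), fragments of 21 to 25 bp in 25.2% and fragments of 26 to 50 bp in 16.1%. Base by base, the share was 84.7% at 10 bp, 83.7% at 16 bp, 70.7% at 18 bp, 45.4% at 20 bp and 21.4% at 22 bp. The shortest class, of 6 bp, stood lower, at 37.4%. Fragments up to 20 bp made up 9.96% of the members and 0.656% of the counted fragments, so the other 395337 members were longer than a tag.

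**Figure D1:**
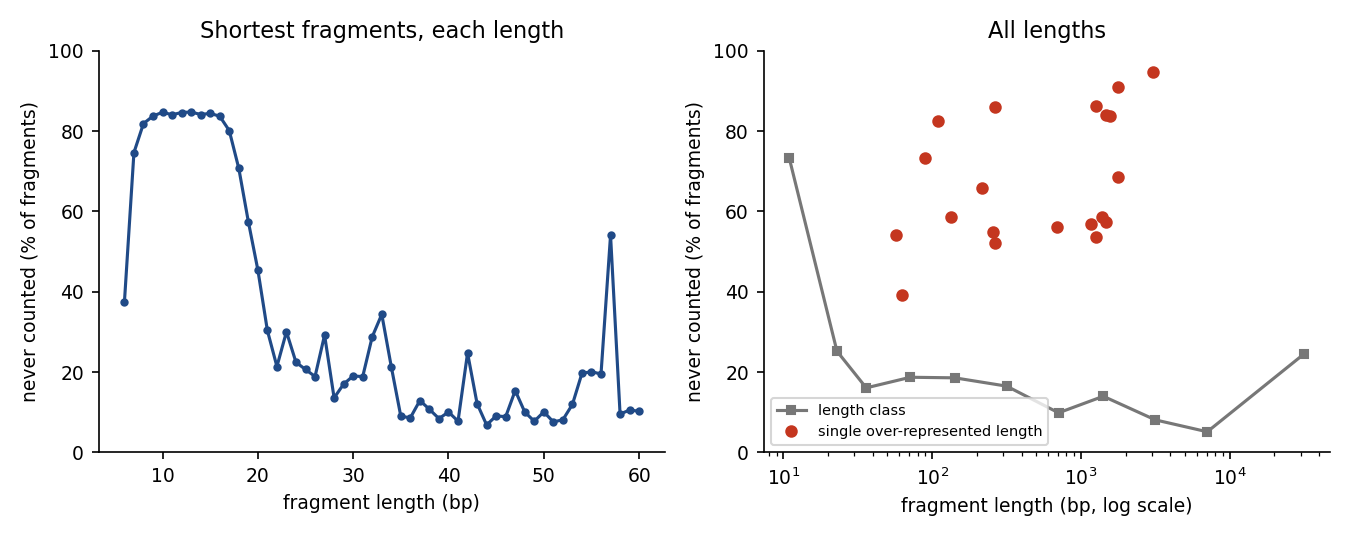
Share of StyI fragments of chromosomes 1 to 19 with 0 counts in all 9 libraries (vertical axes, percent) against fragment length in bp, for each length up to 60 bp (left) and for length classes and 20 over-represented single lengths on a log axis (right). The share falls from 84.7% at 10 bp to 21.4% at 22 bp, and the single lengths (red) lie between 39.2% and 94.6%, above the classes around them.

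Above that size, members gathered at single lengths. A length counts as over-represented here when it holds at least 1000 fragments and at least 2 times the median of the lengths within 20 bp of it. Of 20 such lengths the most frequent was 264 bp, with 31076 fragments, 12.4 times its neighbours, and 85.9% of them were never counted. At 110 bp 82.6% of 16412 fragments were never counted, at 89 bp 73.2% of 12074, at 1273 bp 86.1% of 4945, at 1781 bp 91.0% of 3945 and at 3054 bp 94.6% of 1617. The 20 lengths together held 130409 fragments, of which 71.7% were never counted, and they accounted for 21.3% of the members. By class, fragments of 501 to 1000 bp were never counted in 9.86% of cases, those of 1001 to 2000 bp in 14.0%, those of 2001 to 5000 bp in 8.11% and those over 5 and up to 10 kb in 5.14%. As background, copies of a repeated element carry the same StyI sites at the same distance, so that their fragments share a length.

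The lengths also recurred in a fixed order. The run 89, 1781, 1273, 110 and 264 bp, read in either direction, was present 1298 times on all 19 autosomes. In 93.5% of these places all 5 fragments were never counted, and in 0 places were all 5 counted. The order 264, 110, 3054, 1563 and 695 bp was present 1081 times, with all 5 never counted in 90.9%, and the order 110, 1273, 1781, 89 and 1474 bp 1052 times, with all 5 never counted in 96.0%. A second set of shorter lengths, 123, 198, 513, 319 and 483 bp, was present 474 times, with all 5 never counted in 95.6%. These 4 orders span 3517, 5686, 4727 and 1636 bp. The files used here pair no fragment with a repeat name, so none is given.

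An order of 5 lengths that occurs at least 2 times on the map was found around 20.2% of the never-counted fragments, against 0.176% of the counted ones. Among single never-counted fragments between counted neighbours it was 0.276%. In runs of 3 or 4 it was 3.45%, in runs of 5 to 9 it was 32.6%, in runs of 10 to 19 it was 42.8%, and in runs of at least 100 it was 75.3%. Runs of fewer than 5 cannot hold all 5 lengths, so the first values count only orders that extend into counted fragments. Within the long blocks described next the share was 59.4%, and here the orders were mostly local rather than dispersed. Only 2.80% of the members in long blocks lay in an order found 20 or more times, against 20.8% of those in runs of 5 to 9. Of 5790 orders that occurred exactly 2 times with both places in long blocks, 96.5% had both on the same chromosome, at a median distance of 436 kb, and 91.7% of those pairs lay within 2 Mb.

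**Figure D2:**
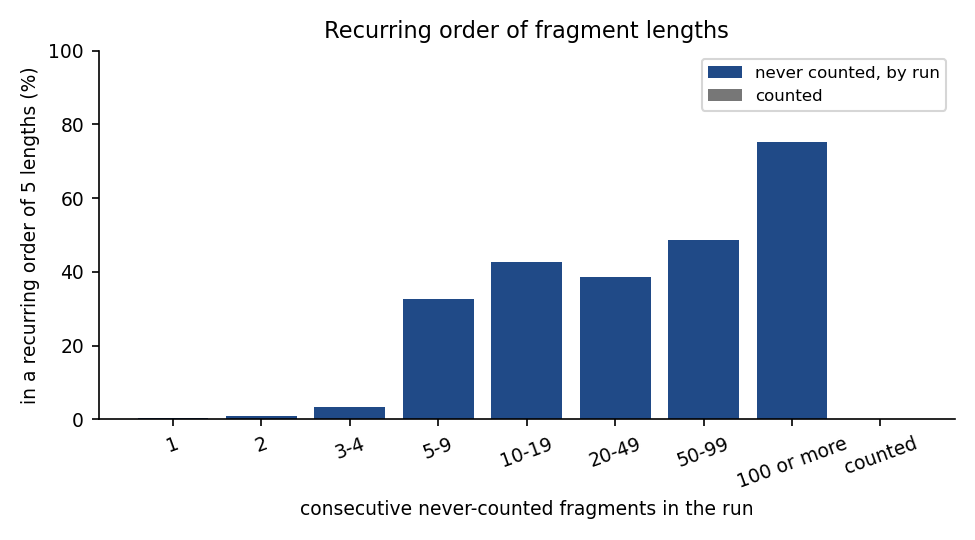
Percent of fragments that lie in an order of 5 consecutive fragment lengths found at least 2 times on the map (vertical axis), for never-counted fragments by the length of their run (horizontal axis, blue) and for counted fragments (grey). The share is 0.276% for runs of 1, 75.3% for runs of 100 or more and 0.176% for counted fragments.

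The never-counted fragments formed 178776 runs, of which 108669 were a single fragment, 24.8% of all members. At the other end stood 577 long blocks, defined as at least 10 consecutive never-counted fragments that span at least 20 kb. They held 46070 members, 10.5% of all, and 52.0 Mb, or 39.3 Mb without fragments longer than 500 kb. A typical block spanned 34.4 kb and held 41 fragments (medians). The 74 blocks of at least 100 kb covered 32.9 Mb. Blocks closer than 200 kb to each other were joined into 177 domains, and the 10 largest domains held 52.1% of all members in long blocks. In these 10 between 92.2% and 99.8% of the fragments were never counted, while over all domains the share ran down to 29.1%, on chromosome 5 from 128846393 to 129022253. On chromosome 7 from 20649774 to 24083745, 3897 of 3933 fragments were never counted, and the median of the 36 counted ones was 7 counts.

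Of the 15 blocks with the largest span, 4 were long because of a single fragment. The longest fragment of the map ran on chromosome 7 from 39355421 to 46357162, that is 7001741 bp without a StyI site, in a block of 32 fragments whose other 31 spanned 25.2 kb. The other 3 were so long because of fragments on chromosome 1 (85343596 to 87345601, 2002005 bp) and on chromosome 8 (20038608 to 22038911, 2000303 bp, and 56208957 to 57911460, 1702503 bp). Of 111 autosomal fragments over 50 kb, 58 were never counted, and 55 of these touched another never-counted fragment. Whether these intervals hold sequence or an assembly gap cannot be read from the files, and no genome of this build was used here.

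The other 11 held between 507 and 1566 fragments each. The largest lay on chromosome 2 from 175001600 to 176547840, with 1566 consecutive fragments at 0, 99.2% of them in a recurring order of lengths. Chromosome 7 held 3, from 7731108 to 8841867 (929 fragments), from 22182596 to 23118457 (1071 fragments) and from 33396525 to 33891500 (672 fragments). Chromosome 4 held one from 42099858 to 42861120 (1084 fragments). Chromosome 14 held 3, from 3307710 to 3942593 (786 fragments), from 5341272 to 5990574 (717 fragments) and from 6526351 to 6989533 (546 fragments). The remaining 3 lay on chromosome 5 from 95168747 to 95701633 (682 fragments) and from 94253532 to 94705025 (507 fragments) and on chromosome 12 from 23826698 to 24290076 (654 fragments). In these 11 the share of fragments in a recurring order ran from 51.2% (chromosome 5, 95168747) to the 99.2% on chromosome 2.

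Chromosomes differed in their share of never-counted fragments by more than 2-fold. The 3 highest were chromosome 14 with 20.9%, chromosome 7 with 20.2% and chromosome 12 with 20.1%, and the 3 lowest were chromosome 9 with 11.9%, chromosome 19 with 11.8% and chromosome 11 with 9.63%. Long blocks held 26.6% of the members of chromosome 14, 28.1% of those of chromosome 7 and 21.5% of those of chromosome 12, against 2.04%, 2.58% and 3.17% on chromosomes 9, 19 and 11. Outside the blocks the same 6 chromosomes had 16.3%, 15.4% and 16.5%, against 11.6%, 11.5% and 9.36%, so the order is flatter there but keeps chromosome 11 last. Chromosome 3, chosen after its values were seen, had a share of 16.7% with only 2.45% of its members in long blocks. The longest block of each chromosome ran from 26.4 kb on chromosome 15 to 7027 kb on chromosome 7. For comparison, 33.0% of the fragments of chromosome X and 53.7% of those of Y were never counted.

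**Figure D3:**
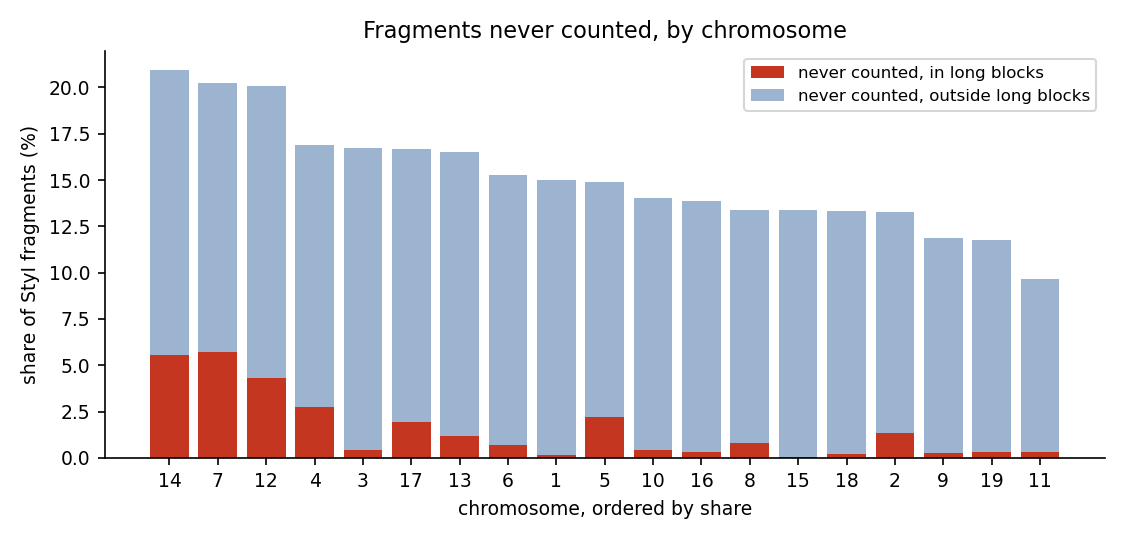
Share of the StyI fragments of each autosome with 0 counts in all 9 libraries (vertical axis, percent), split into fragments in long blocks (red) and outside them (blue), with chromosomes ordered by the total. Chromosomes 14, 7 and 12 exceed 20%, with the largest red parts, and chromosome 11 stands lowest at 9.63%.

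What lies in the largest domains was read from the order of genes in RefSeq, taken between the nearest genes that could be placed on the map on each side. Genes between them are the candidates for the domain, and those near its ends may lie outside. The chromosome 7 domain from 20649774 to 24083745 fell between Igsf23 and Vmn1r172. Of the 163 genes between these, 69 were predicted genes and 87 were genes and pseudogenes of type 1 vomeronasal receptors. These receptors detect pheromones in the vomeronasal organ. The chromosome 7 domain from 7163310 to 9591004 fell between Zfp772 and Vmn1r70, with 41 type 2 vomeronasal receptor genes and pseudogenes among 104. Vmn1r70 lies 1628 kb beyond its right end, so many of these candidates may lie outside the domain. Inside it 8 genes could be placed, and 5 of them were never counted. One more domain of chromosome 7, from 32464853 to 34148798, fell between Gm10640 and Scgb2b24, with 41 secretoglobin genes and pseudogenes among 76. Secretoglobins include the androgen-binding proteins of saliva and tears.

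On chromosome 5 the domain from 93919293 to 96239083 fell between Ccng2 and Gm33050, with 18 Pramel genes among 52, leucine-rich repeat genes of the germ line and early embryo. The chromosome 2 domain from 174916210 to 177621936 fell between Gm30537 and Gm35815. Among its 87 candidates were 10 zinc finger genes and pseudogenes, such as Zfp968 and Zfp970, and 69 predicted genes. The chromosome 4 domain from 41757529 to 42861120 fell between 1110017D15Rik and Vcp. Its 70 candidate genes included 8 chemokine genes and pseudogenes, such as Ccl21a and Ccl27a, which guide lymphocytes and dendritic cells, and the receptor genes Il11ra1 and Il11ra2. There 1606 of 1610 fragments were never counted.

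The chromosome 14 domain, from 3008524 to 8491239, was the largest, with 6598 of 6829 fragments never counted. As many as 64 genes were placed inside it, of which 54 were never counted, and 170 of the 179 RefSeq genes up to its right neighbour Gm38418 are predicted genes without an assigned function. Another chromosome 14 domain, from 42081062 to 43858308, had 31 placed genes, of which 22 were never counted. On chromosome 12 the domain from 23007435 to 25041282 had 5 placed genes, all never counted, among 119 candidates of which 100 are predicted genes. The nearest placed gene on its left, Gm46325, lies 5542 kb away, so many candidates may lie outside the domain. Near the longest fragment of chromosome 8 the gene order between Upf3a and Defb15 listed 61 defensin genes and pseudogenes among 172. Defensins are antimicrobial peptides of epithelia. Upf3a lies 6229 kb away, so this interval is wide.

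Gene by gene, 21690 of 25748 RefSeq genes of the autosomes covered by the promoter table (84.2%) could be placed, and a gene is called never counted when all fragments that overlap its promoter windows were at 0. This held for 754 genes, or 3.48%. The 15.3% of all fragments is an unlike measure and is not to be compared with it. A gene needs all its promoter fragments at 0, and only genes whose site pattern stood apart from other positions could be placed. Of the 754, 206 (27.3%) lay in long blocks. Families are read against the 3.48%, with no test, since the genes of a family share sequence and position. Unplaced genes are not counted, and they are many in the families of the largest domains.

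Among receptors of the chemical senses, 22 of 84 placed type 2 vomeronasal receptor genes and pseudogenes were never counted (26.2%). Among those named by the rule were Vmn2r34 and Vmn2r113, with 2 such fragments each, and Vmn2r111, with 1. The promoter fragments of Vmn2r34 ran on mm9 chromosome 7 from 7640391 to 7642396, and those of Vmn2r113 on chromosome 17 from 23078920 to 23081573. For type 1 receptors it was 22 of 121 (18.2%), such as Vmn1r45 and Vmn1r60, or 11 of 94 (11.7%) with the stricter placement, in which the site pattern had to lead by 5. Olfactory receptors, the largest gene family of the mouse, stood much lower, at 62 of 888 (6.98%), with Olfr331, Olfr1373, Olfr1382 and Olfr99 named by the rule. None of 11 trace amine-associated receptors was never counted. The families of the nose thus ranged from 0 to 26.2%.

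All 4 Zscan4 genes and 16 of 30 placed Pramel genes (53.3%) were never counted, among them Pramel4, Pramel5, Pramel11 and Pramel14 on chromosome 4, with the fragments of Pramel4 from 143648659 to 143649685. Histone genes of the clusters, whose copies supply new chromatin in S phase, were never counted in 21 of 62 cases (33.9%), such as H2ac10, H2ac11, H2ac13 and H2ac24 on chromosome 13, with the fragments of H2ac13 from 21807951 to 21808672. Added after the values were seen, Cphx1, Cphx2 and Cphx3, homeobox genes of the early embryo, were never counted in 3 of 3 cases, Tdpoz genes in 4 of 6 and Usp17 deubiquitinase genes in 3 of 4. Fbxw genes (5 of 19), Sprr genes of the skin barrier (4 of 14), secretoglobins (1 of 10, or 0 of 3 with the stricter placement) and alpha globin genes (2 of 3) were added in the same way. The 7 placed pluripotency genes were all counted, among them Nanog and Pou5f1, which encodes Oct4.

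Immune families differed widely. Of 11 Klra genes, which encode Ly49 receptors of natural killer cells, 4 were never counted (Klra2, Klra8, Klra9 and Klra17). Of the 8 placed ribonuclease genes of the Ear and Ang families, 5 were never counted, among them Ear1, Ear2 and Ear10. Naip5 and Naip6, sensors of bacterial flagellin, were never counted, of 3 placed Naip genes, with the fragments of Naip5 on chromosome 13 from 101015633 to 101017674. Of 32 genes of the major histocompatibility complex, 3 were never counted (H2-K1, H2-Q6 and H2-M10.3), and the fragments of H2-K1, which encodes a class I antigen-presenting chain, ran on chromosome 17 from 34136747 to 34138114. None of 16 placed defensins and none of 10 placed chemokine genes was never counted, but only 16 of 45 and 10 of 17 could be placed. Interferon genes (1 of 16) and the interferon-inducible GTPases (0 of 10) were near or below the share of all genes.

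Enzyme and secreted protein families gave 8 of 46 for Cyp2 genes (17.4%), which oxidise drugs and steroids and include Cyp2b9, Cyp2b13, Cyp2a4 and Cyp2d11. Serpins, protease inhibitors, gave 4 of 41, with Serpina1b, Serpina1d and Serpina1e of the alpha-1 antitrypsin copies. Klk genes gave 2 of 20, Cyp4 genes 2 of 15, prolactin family genes 2 of 21, Mrgpr genes 2 of 15, Skint genes 2 of 8, Nlrp genes 1 of 10, Ugt genes 1 of 16 and Mup genes, urinary pheromone carriers, 1 of 5. With the stricter placement Mup genes gave 0 of 3, and no Skint gene was placed. Zinc finger genes named Zfp gave 18 of 264 (6.82%) and keratin genes 3 of 90 (3.33%). Predicted genes with Gm names gave 340 of 6471 (5.25%) and made up the largest number. Ribosomal protein genes (0 of 66), microRNA genes (0 of 8), Hox genes (0 of 15) and the 7 placed widely expressed genes, Gapdh among them, were all counted in at least 1 promoter fragment.

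**Figure D4:**
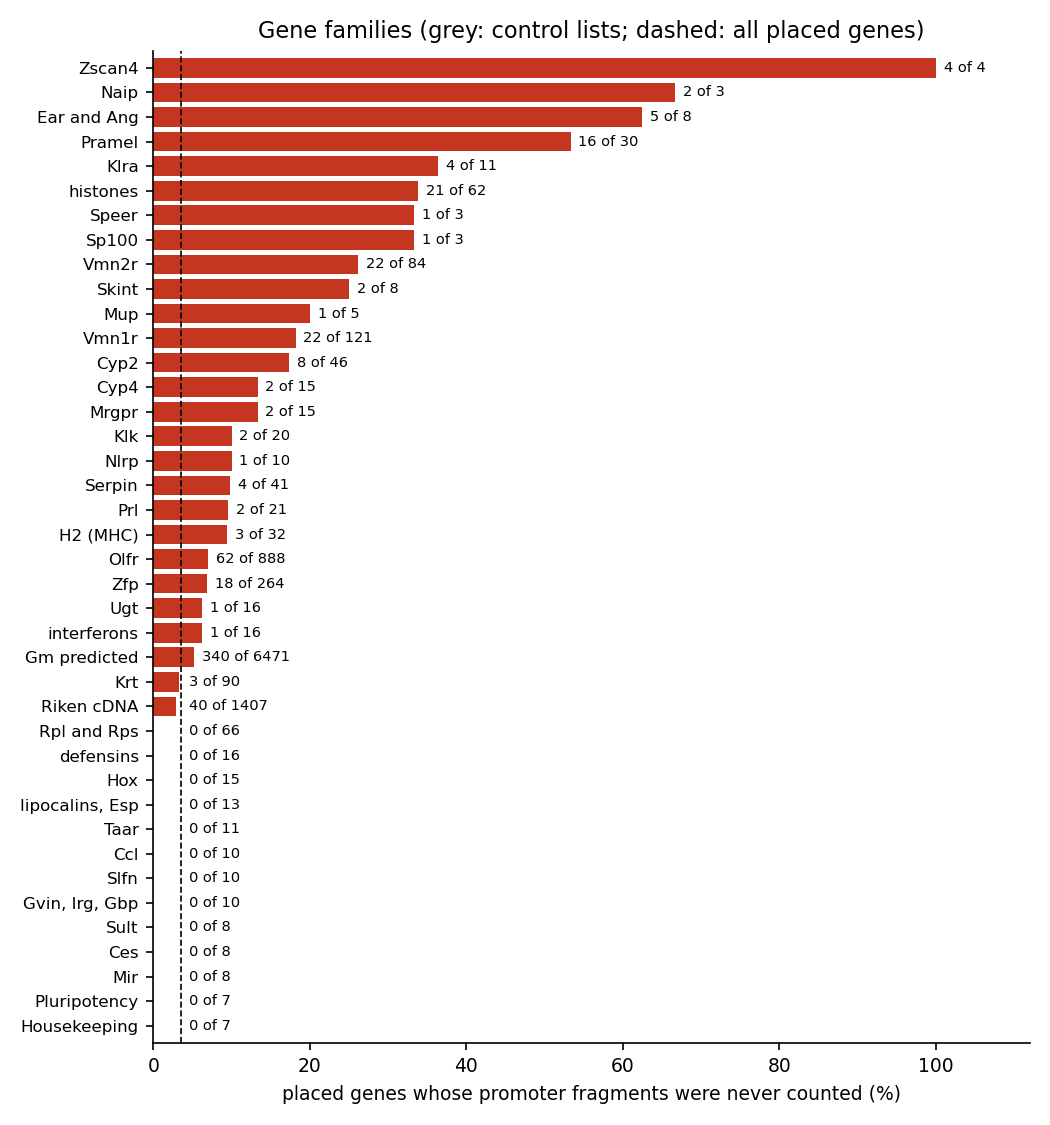
Percent of placed genes whose promoter fragments were all never counted (horizontal axis) for gene families (red) and control lists (grey) with at least 3 placed genes, with the number of such genes of the number placed beside each bar. Families added after the values were seen, such as Cphx (3 of 3), are not shown. The dashed line is the 3.48% of all placed genes, and Zscan4 (4 of 4) stands at the top and the Hox, pluripotency and housekeeping lists at 0.

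Whether DNA around the never-counted fragments is partitioned between the fractions can be asked only of their counted neighbours, whose levels the rule did not use. Within 50 kb of long blocks lay 15736 counted fragments. Their mean CPM relative to that of all counted autosomal fragments was 0.834, 0.838 and 0.835 in HRS replicates 1 to 3, 0.852, 0.849 and 0.853 in Loop replicates 1 to 3, and 0.835, 0.826 and 0.856 in the D0, D12 and D21 inputs. All 9 values lay below 1. HRS and Loop did not overlap, and both lay within the range of the inputs. The HRS libraries averaged 0.836 ± 0.00185, the Loop libraries 0.851 ± 0.00186 and the inputs 0.839 ± 0.0154 (SD, n = 3 each). The differences were -0.0159 for HRS minus Loop (p = 0.1, two-sided exact permutation test, adjusted over 3 comparisons 0.3), -0.00329 for HRS minus input (exact p = 0.8, adjusted 0.8) and 0.0127 for Loop minus input (exact p = 0.4, adjusted 0.6). With 3 libraries against 3 the smallest p is 0.1, so none can pass 0.05. The difference between HRS and Loop turned round with the distance taken, to 0.0333 within 100 kb (exact p = 0.1).

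By distance, the level was lowest beside the blocks in every group. At 0 to 5 kb the HRS libraries were at 0.692 ± 0.00893, the Loop libraries at 0.723 ± 0.00897 and the inputs at 0.698 ± 0.0215 (SD, n = 3 each). At 20 to 50 kb the HRS libraries were at 0.876 ± 0.00452, the Loop libraries at 0.902 ± 0.00454 and the inputs at 0.885 ± 0.0137. At 5 to 20 kb the HRS libraries were at 0.827 ± 0.00779, the Loop libraries at 0.814 ± 0.00971 and the inputs at 0.817 ± 0.0162. At 50 to 100 kb HRS was at 1.07 ± 0.0211, against 0.980 ± 0.00761 in Loop and 0.962 ± 0.00455 in input. At 100 to 500 kb HRS was at 1.08 ± 0.0342, against 1.01 ± 0.0106 in Loop and 0.991 ± 0.0116 in input. The share of never-counted fragments was 59.1% at 0 to 5 kb, 64.5% at 5 to 20 kb, 49.6% at 20 to 50 kb, 35.6% at 50 to 100 kb and 12.8% beyond 500 kb. Its part in the lower level was not tested.

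**Figure D5:**
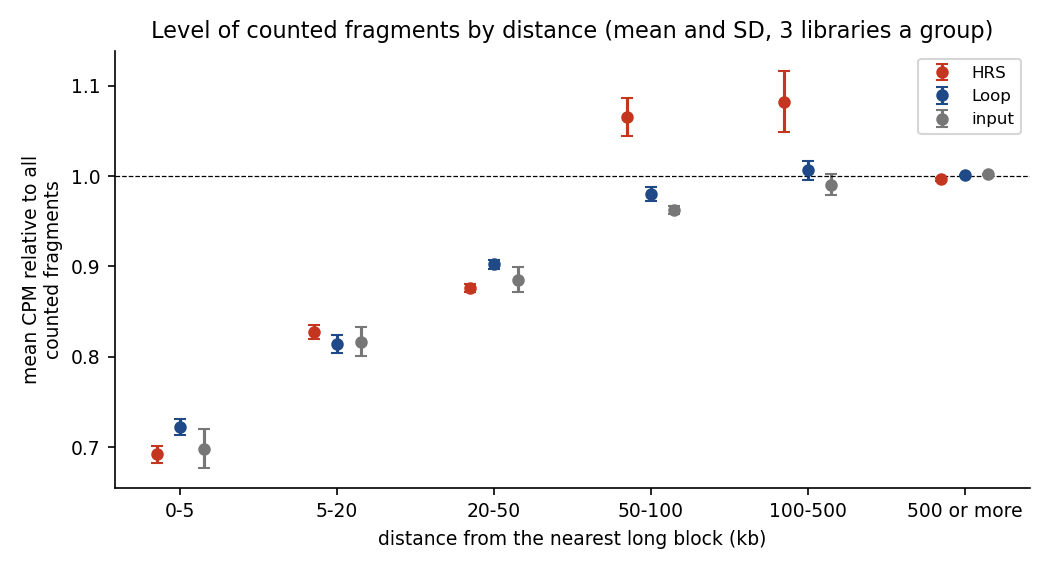
Mean CPM of counted fragments relative to all counted autosomal fragments (vertical axis, which does not start at 0) by distance from the nearest long block in kb (horizontal axis), for HRS, Loop and input, as mean and SD of 3 libraries a group. All groups lie between 0.692 and 0.723 at 0 to 5 kb, and HRS lies above Loop and input at 50 to 100 kb and at 100 to 500 kb.

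Bins of 10 kb that are rich in never-counted fragments, with at least 5 fragments of which at least 50% were never counted, allow a test with edgeR's quasi-likelihood model on the counts that remain in them. There were 24394 such bins, 9.52% of all bins. They held between 1.70% and 1.90% of all counts in the HRS libraries, between 1.84% and 1.93% in the Loop libraries and between 1.97% and 2.11% in the inputs. Their median count was low, 29, 30 and 17 in the HRS libraries, 31, 28 and 20 in the Loop libraries and 37, 35 and 37 in the D0, D12 and D21 inputs, against 113 to 214 in the other bins. Fewer counts give fewer calls, so that the shares below and those of all bins cannot be compared as sizes of effect.

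For HRS against Loop, 17314 rich bins could be tested. At a Benjamini-Hochberg adjusted p of 0.05 over all bins, 1604 (9.26%) stood above Loop in HRS and 2224 (12.8%) below it, where 17.8% of all bins tested stood above and 20.4% below. The median log2 ratio was 0.12 in rich bins and 0.01 in all. With a correction for fragment length 571 (3.30%) stood above Loop and 735 (4.25%) below it, against 14.9% and 8.44% of all bins, and the median log2 ratio was -0.09 in rich bins and -0.03 in all. The sign of the median turned with that correction, and the called rich bins fell to 1306, against 3828 without it. HRS replicate 3 and Loop replicate 3, which had the lowest medians in rich bins, did not decide the count, which was 3972 without the first and 3138 without the second, against 3828 with all libraries. Without HRS replicate 3, 9.21% of rich bins were higher in HRS and 12.9% higher in Loop, against 17.3% and 22.0% of all bins. Without Loop replicate 3 it was 6.28% and 11.3%, against 15.4% and 17.6% of all bins. Without HRS replicate 1 the bins above Loop numbered 1043 (5.85%) and those below it 1737 (9.74%), against 14.3% and 15.9% of all bins.

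For HRS against input, 685 of 17985 rich bins were higher in HRS (3.81%) and 786 higher in input (4.37%), against 15.2% and 9.16% of all bins. The length correction gave 724 (4.03%) and 798 (4.44%) in the same order, against 15.5% and 9.73% of all bins. Library totals in place of TMM factors moved the median log2 ratio of all bins to -0.15. With them 435 (2.42%) were higher in HRS and 1395 (7.76%) higher in input, against 11.7% and 17.5% of all bins. Leaving out an input turned the balance of rich bins round. Without D0 474 (2.60%) were higher in HRS and 380 (2.08%) higher in input. It was 383 (2.10%) and 319 (1.75%) without D12, and 348 (1.91%) and 215 (1.18%) without D21. Of all bins, 12.8% were higher in HRS and 5.60% higher in input without D0, 10.4% and 4.30% without D12, and 9.68% and 3.99% without D21. DESeq2 gave 545 (4.83%) higher in HRS and 454 (4.02%) higher in input, against 15.1% and 6.61% of all bins. For Loop against input, 2406 of 17876 rich bins were higher in Loop (13.5%) and 3177 higher in input (17.8%), against 21.5% and 18% of all bins. The median log2 ratio was -0.29 in rich bins and -0.02 in all. The length correction left 143 higher in Loop and 16 higher in input, with a median log2 ratio of 0.01 in rich bins. Library totals, which moved the median of all bins to -0.15, gave 1750 (9.79%) and 4704 (26.3%), against 13.7% and 27.7% of all bins. Here too the balance of rich bins turned round when an input was left out. Without D0 1756 (9.68%) were higher in Loop and 1675 (9.24%) higher in input. It was 1836 (10.1%) and 1590 (8.72%) without D12, and 1910 (10.5%) and 1340 (7.39%) without D21. Of all bins, 17.2% were higher in Loop and 11.5% higher in input without D0, 15.9% and 10.6% without D12, and 16.3% and 10.6% without D21. In 10 kb bins, with all libraries, TMM factors and no length correction, the share of rich bins called lay below that of all bins. This held in both directions in the 3 comparisons, but only narrowly for Loop against input on the input side, at 17.8% against 18%. Without Loop replicate 1 it did not for Loop against input, where 17.9% of rich bins and 17.2% of all bins were higher in input. Nor did it with the length correction for Loop against input, in either direction. There 143 of 17876 rich bins and 661 of all 246731 bins were higher in Loop, and 16 and 193 higher in input. The lower share did not hold in every direction for HRS against Loop in bins of 100 kb. There 27.8% of rich bins and 25.5% of all bins were higher in Loop. For Loop against input in 100 kb bins, 16.0% of rich bins were higher in Loop and 14.0% higher in input. Of all 100 kb bins 13.1% and 13.7% were.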

How the data were processed

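StyI fragment counts were analysed for 9 libraries of E14Tg2a cells (3 HRS, 3 Loop, 3 input), grouped by their titles. The deposited values are whole-number counts per fragment with mm9 coordinates as in the files. Per the labels' protocols, StyI ends were ligated to a biotinylated adaptor and cut with MmeI. The submitters' processing notes name CASAVA 1.8.2 and the mm9 build. For the aligner and its handling of tags with several matches, the sources used here state nothing. The repeat-name tables were not used. Short tags without molecular identifiers limit which positions can be told apart, and intervals or floors cover counting error only.

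The members, gene families and tests were chosen with earlier results of these data known. Named items are the 15 blocks of largest span, the 3 highest and lowest chromosomes, and per family up to 4 never-counted genes with the most fragments. Ties in the number of fragments were taken in order of symbol. Patterns for Pramel, histone, immunoglobulin, interferon and microRNA genes were corrected, and the Cphx, Tdpoz, Hba, Scgb and other added families chosen, after names or values were seen. No genes of the immunoglobulin, T cell receptor, small RNA or protocadherin lists were in the promoter table.

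No mm9 annotation was used here. RefSeq promoter windows of GRCm38.p6 (18 autosomes) were placed by their own StyI sites: up to 6 sites on each side within 1 Mb were matched exactly to site distances on the whole chromosome map, with at least 4 matches, a lead of at least 2 over the next position, and the window's own sites identical. No coordinate was converted. Of 31396 windows 26528 were placed, all 26510 neighbouring pairs kept RefSeq order, and when every window was searched on the map of another chromosome 8 were placed there (0.0255%). Builds differ in assembly, so gene order inside the largest domains is that of GRCm38.p6. Overlapping and near-identical genes share fragments and are uncertain singly.

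Counts were summed in 10 kb bins and tested with edgeR 4.0.16 in R 4.3.3 (glmQLFit, glmQLFTest, TMM, filterByExpr minimum count 10), with DESeq2 1.42.0 as an alternative. The length correction set, per bin and library, an offset from the counts that 20 classes of fragment length give, with TMM factors on the corrected counts. Levels beside blocks were compared as CPM ratios by exact permutation tests over libraries. On simulated data for HRS against Loop (20000 bins) 96 of 100 bins changed 2-fold and 100 of 100 changed 4-fold were recovered, with 6 false calls. With a simulated length bias the corrected fit recovered 95 and 100, with 5 false calls. The simulated bins were drawn from all bins above a minimum count, with a fixed spread. Rich bins hold fewer counts, so the recovery in them was not tested. Replicate numbers were taken to pair HRS with Loop, since deviations of same-numbered libraries correlated at 0.153, 0.106 and 0.228 (HRS replicate 2 correlated with Loop replicate 1 at 0.121), but the main fit held no pairing term.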

Additional observations from a re-analysis of the deposited data

How the results depend on the processing

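Of 125 alternative values, 103 kept their direction (levels beside blocks) or stayed within 1.5 times (counts and shares). For rich bins only the total called in both directions was compared. A turned balance, as with DESeq2 for HRS against input, therefore still counts as kept. The never-counted fragments numbered 441189 to 444685 when a library was left out, and 395337 (added after seeing the data) when only fragments over 20 bp were taken. Leaving out a library gave 576 to 589 long blocks and 10.5% to 10.6% of members in them. A span of at least 10 kb gave 1976 blocks and one of at least 50 kb gave 174, and allowing 1 counted fragment put 16.1% of members in blocks. Genes never counted were 591 of 18125 when the site pattern had to lead by 5, a setting added after seeing the data. Beside blocks, HRS minus Loop was 0.0333 within 100 kb, and HRS minus input was 0.00454 within 20 kb and 0.0483 within 100 kb. Leaving out a library gave -0.0170 to -0.0151 for HRS minus Loop, -0.00979 to 0.00521 for HRS minus input and 0.00615 to 0.0211 for Loop minus input. In bins of 100 kb 313 of 756 rich bins were called for HRS against Loop. For HRS against input it was 195 of 759, and for Loop against input 227 of 757. Of all 100 kb bins, 24.0% were higher in HRS and 25.5% higher in Loop in the first comparison. In the second 25.1% were higher in HRS and 16.8% in input, in the third 13.1% in Loop and 13.7% in input. Where at least 75% of fragments had to be never counted, 672 of 3236, 285 of 3625 and 996 of 3580 were called. The shares of all 10 kb bins are those given above. The length correction gave 1306 for HRS against Loop and 159 for Loop against input. Leaving out a library gave 2780 to 3972, 563 to 1774 and 3250 to 5551 in that order of comparisons. The inputs D0, D12 and D21 gave 854, 702 and 563 when left out of HRS against input, and 3431, 3426 and 3250 when left out of Loop against input. The cause of these shifts was not tested, apart from the smaller number of bins with larger bins or a stricter limit.

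The replicate block called 4559 rich bins for HRS against Loop, and 1640 with the length correction, in place of 3828 and 1306. With the block 11.7% of rich bins were higher in HRS and 14.6% higher in Loop, against 20.4% and 22.8% of all bins. With the length correction as well it was 3.89% and 5.58%, against 16.6% and 10.9% of all bins. The exact sign-flip p of the replicate block beside long blocks was 0.25, the smallest that 3 pairs allow. A zero cannot be told from a level under 0.00598 CPM at this depth.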
